A study of Drosophila melanogaster with 3 samples.

Results

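The Lcp, Ccp84A, Edg and Tweedle genes of Drosophila melanogaster, with the Pcp and Acp genes, encode structural proteins of the insect cuticle. They were taken by symbol from the deposited tables, as every gene whose name begins with Lcp, Ccp84A, Edg followed by a digit, Twdl or Acp65A, plus Pcp and Acp1, which gave 53 of 13990 genes. The families are 7 Ccp84A genes, 3 Edg genes, 4 genes named Lcp1 to Lcp4, 10 Lcp65A genes with Acp65Aa, Lcp9, Pcp, Acp1 and 25 Tweedle genes. The genes were picked by symbol, but these families were chosen with earlier results of these data known. The RNA came from 3 libraries, 1 for each genotype, so no difference below has a replicate check and no p-value is given. The Act>Aac11-RNAi library (labelled Act-Aac11-IR) carries the Actin5C-Gal4 driver and a UAS-RNAi transgene against Aac11, the fly ortholog of mammalian API5. The Act>control library (labelled Act) carries the same driver and no hairpin in its label. The enGFP+Yki+Aac11-IR library, called the Yki library here, has engrailed-GFP, Yorkie and an Aac11 hairpin in its label, and its values stand in a table of its own. Actin5C-Gal4 is active in most tissues, so the hairpin was not limited to the epidermis. Per the labels' protocols, wandering larvae were picked by GFP fluorescence, and 10 to 20 animals were pooled for each Act genotype. No source used here states the age in hours, the strain or the sex of the larvae.

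Cuticle is laid down by the epidermis and by the tracheal, foregut and hindgut epithelia as layers of chitin fibres filled with proteins. Each moult brings its own protein set, switched by pulses of the steroid ecdysone and the nuclear receptors it induces. The Lcp genes were named for larval cuticle, Pcp for pupal cuticle and the Acp genes for adult cuticle, while Edg stands for ecdysone-dependent genes, which are known from imaginal discs and the prepupal epidermis. The Lcp, Ccp84A, Edg78E, Edg84A, Pcp and Acp65Aa proteins carry the Rebers-Riddiford chitin-binding consensus. Tweedle proteins form a separate family, first known from mutants with short, squat larvae.

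Aac11 RNA measured 78.1 FPKM (fragments per kilobase of transcript, corrected for library size) in the RNAi library and 150 FPKM in the control. The Yki library measured 117 FPKM. The spacing of the low FPKM values gave depths of about 31950000 fragments in the RNAi library, 6150000 in the control and 18050000 in the Yki library, so absence is hardest to judge in the control. The source label reads wing disc cells while the extraction protocol describes whole larvae, and the marker levels differ between the tables. The fat body gene Lsp2 measured 5243 FPKM in the RNAi library and 8453 FPKM in the control, but 7.78 FPKM in the Yki library, whereas the wing pouch gene nub measured 16.5 FPKM in the RNAi library, 12.7 FPKM in the control, beside 78.9 FPKM for the Yki library.

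Most of the expressed cuticle protein genes were higher in the RNAi library. A gene was kept when its mean over both Act libraries was at least 1 FPKM, and 21 of the 53 genes passed. Of these, 15 were higher and 2 were lower by 2-fold or more in the RNAi library, judged by the log2 ratio of (FPKM + 1). Among all 11330 kept genes, 3.70% were that much higher and 17.0% that much lower. The median log2 ratio was 1.99 over the 21 kept members and -0.03 over all kept genes. Over all 53 members, 35 had the higher value in the RNAi library, 8 in the control, and 10 were listed at 0 in both. Over all 13990 genes these numbers were 6481, 6652 and 857. Of the 35 members, 14 were listed at 0 in the control. The shallower control had more such genes, with 714 at 0 there alone and 72 at 0 in the RNAi library alone. A gene that is low in the control can pass the filter through its RNAi value alone. Keeping genes by a control value of at least 1 FPKM instead, a choice made after seeing the data, left 15 members, of which 8 were higher and 2 lower. The same filter gave 2.43% higher and 17.4% lower among 11195 genes. With it the median log2 ratio of the members was 1.02. With no filter the median was 0.35 over all 53 members and 0 over all 13990 genes. Fewer cells of a type and less RNA per cell cannot be told apart in whole-animal RNA.

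**Figure D1:**
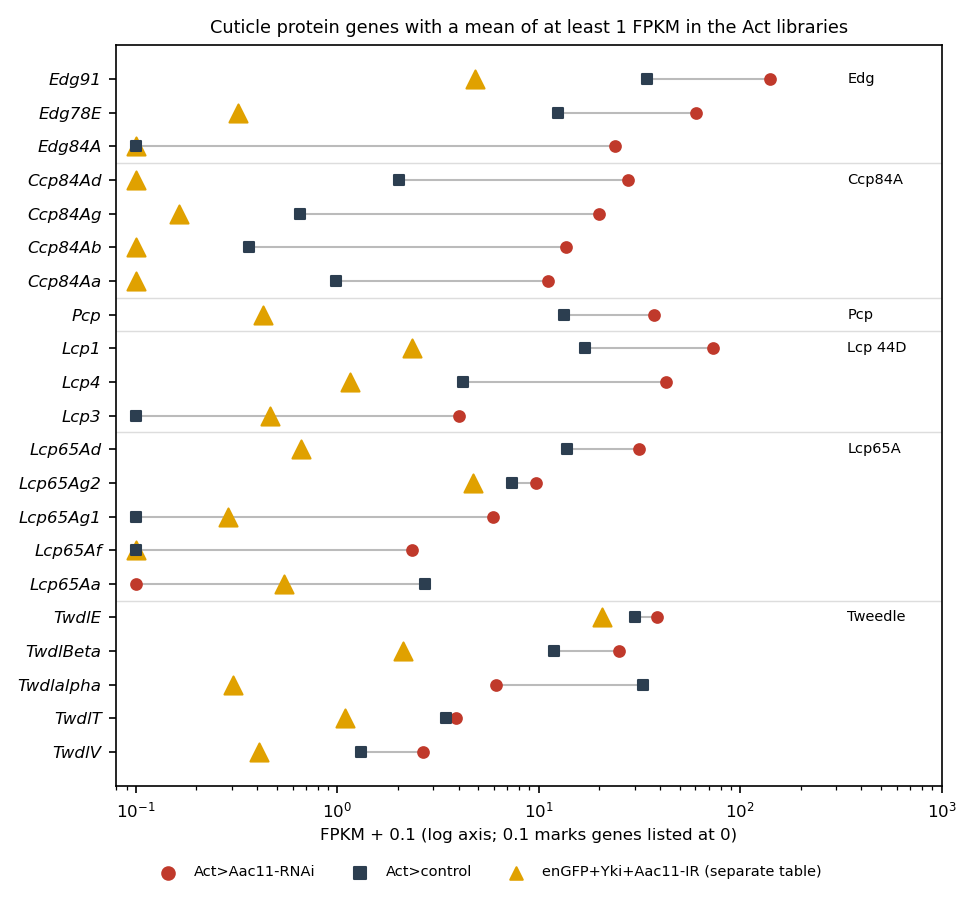
FPKM plus 0.1 on a log axis for the 21 cuticle protein genes averaging 1 FPKM or more over the Act libraries, grouped by family, with 1 point per library. Circles (RNAi) lie right of squares (control) for every gene but Lcp65Aa and Twdlalpha, and triangles mark the separately normalized Yki library.

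All 3 Edg genes were higher in the RNAi library. Edg91, a glycine-rich cuticle protein gene (chromosome 3R, 17610856 to 17611511, dm6), had the highest level of all members in both Act libraries, at 139.8 FPKM in the RNAi library and 34.4 FPKM in the control. Its log2 ratio was 1.99. Edg78E (chromosome 3L, 21296763 to 21297803) measured 60.4 FPKM in the RNAi library and 12.4 FPKM in the control, a log2 ratio of 2.20. Edg84A (chromosome 3R, 6684445 to 6685157), a gene that the nuclear receptor FTZ-F1 activates in prepupae, measured 23.8 FPKM in the RNAi library and was listed at 0 in the control. About 328 fragments lay behind the RNAi value, and the same level would have given about 63.1 fragments at the depth of the control. Of the protein-coding genes, 2 had at least 15 FPKM in the RNAi library and were listed at 0 in the control, Edg84A and another cuticle gene, Cpr65Ec. The reverse was seen for 1 protein-coding gene, CG42852. In the Yki library Edg91 measured 4.71 FPKM, Edg78E 0.222 FPKM and Edg84A was listed at 0, while Cpr65Ec measured 33.1 FPKM. Within the Act table the Edg genes were thus higher in the RNAi library. The Yki values come from a separately normalized table and were not ranked against these.

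Of the 7 Ccp84A genes, 4 were kept and higher in the RNAi library, and these rested on few fragments in the control. They lie in 1 cluster with Edg84A on chromosome 3R, 20.5 kb long, from 6684445 to 6704903. Ccp84Ad measured 27.6 FPKM in the RNAi library and 1.92 FPKM in the control. Ccp84Ag measured 19.9 FPKM in the RNAi library and 0.555 FPKM in the control. Ccp84Ab measured 13.6 FPKM in the RNAi library and 0.263 FPKM in the control. These 3 control values rest on about 6, 3 and 1 fragments, beside 455, 557 and 266 fragments in the RNAi library. Ccp84Aa measured 11.0 FPKM in the RNAi library and 0.886 FPKM in the control, on about 192 and 3 fragments. With the pseudocount the 4 log2 ratios ran from 2.67 (Ccp84Aa) to 3.75 (Ccp84Ag). Of these 4 genes, Ccp84Ag, Ccp84Ab and Ccp84Aa were under 1 FPKM in the control and passed the filter through their RNAi value.

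Within the same cluster, 3 Ccp84A genes stayed low. Ccp84Ae measured 1.05 FPKM in the RNAi library and was listed at 0 in the control, Ccp84Af measured 0.948 FPKM in the RNAi library and 0.447 FPKM in the control, and Ccp84Ac was listed at 0 in both. Ccp84Ac, between Ccp84Ad and the noncoding gene pncr002:3R, was the 1 member of the cluster with no signal in any library. The annotated gene pncr002:3R lies between Ccp84Ac and Ccp84Ab and was higher as well, at 472 FPKM in the RNAi library and 126 FPKM in the control. In the Yki library pncr002:3R measured 52.2 FPKM, while Ccp84Ag was at 0.0631 FPKM on about 1 fragment and the other 6 Ccp84A genes were listed at 0. Ccp84Aa and Ccp84Ab are close copies that can share reads, so the split between them is uncertain.

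**Figure D2:**
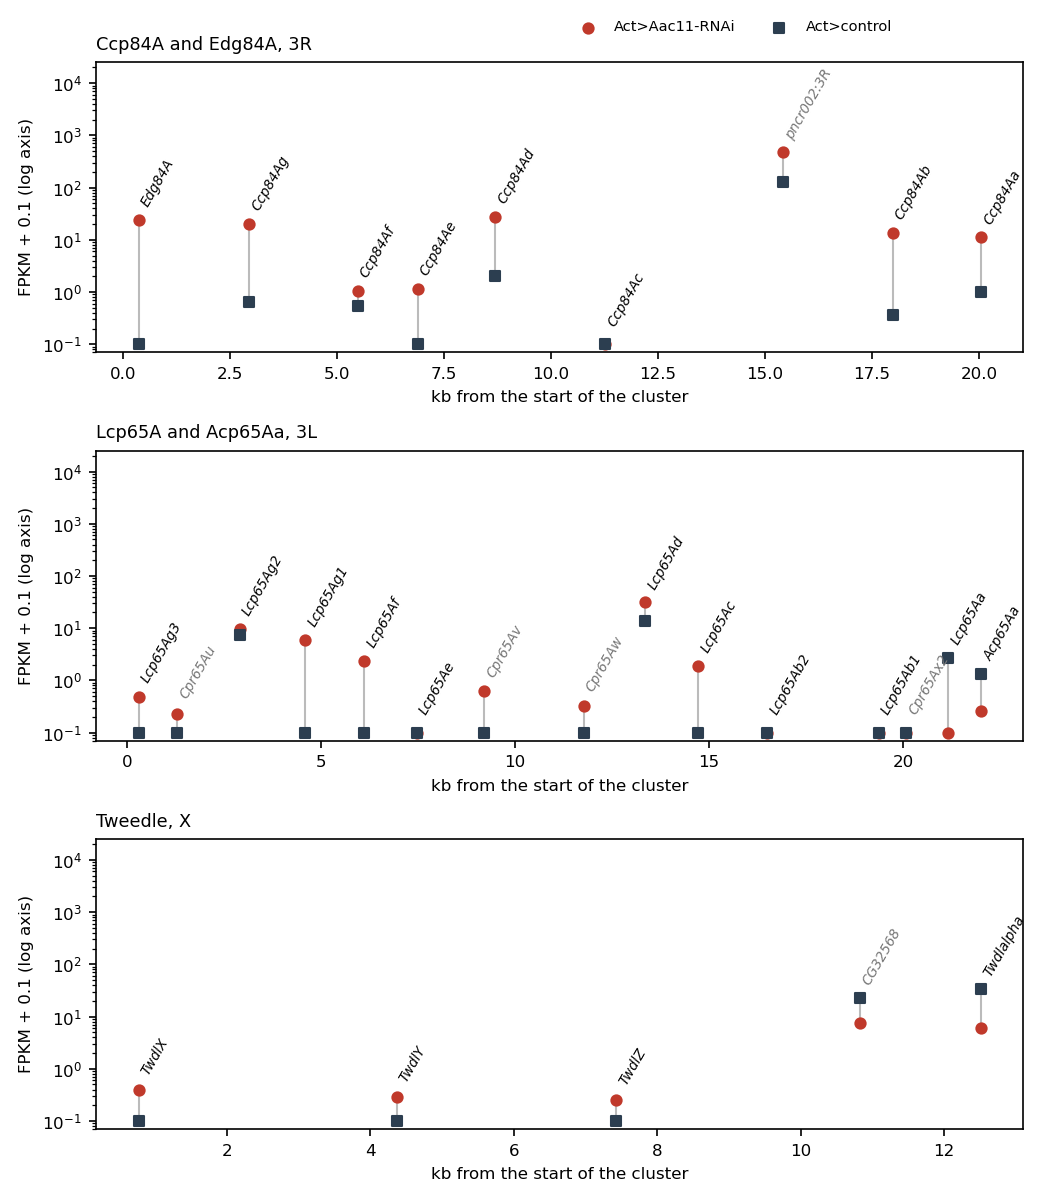
FPKM plus 0.1 (log axis) against distance from the start of each cluster in kb, for the Ccp84A, Lcp65A and X-linked Tweedle clusters, with circles for the RNAi library, squares for the control, black names for members and grey names for other genes. At the Ccp84A cluster Edg84A and 4 Ccp84A genes lie between 11.0 and 27.6 FPKM in the RNAi library and at 1.92 FPKM or less in the control, whereas at the X-linked cluster Twdlalpha and its neighbour CG32568 are lower in the RNAi library.

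The genes Lcp1 to Lcp4, which encode abundant proteins of the last larval cuticle, differed widely in level. They form an 8.4 kb cluster on chromosome 2R. Lcp1 measured 73.1 FPKM in the RNAi library and 16.8 FPKM in the control, a log2 ratio of 2.06. Lcp4 measured 42.6 FPKM in the RNAi library and 4.12 FPKM in the control, a log2 ratio of 3.09, with about 8 control fragments. Lcp3 measured 3.93 FPKM in the RNAi library and was listed at 0 in the control, where the same level would have given about 7.1 fragments. Lcp2 measured 1.23 FPKM in the RNAi library and 0.491 FPKM in the control, about 1 control fragment, and was under the filter. Lcp1, Lcp3 and Lcp4 were thus past 2-fold, while the counting interval of Lcp2 on the log2 scale, -1.41 to 6.73, includes 0. The Yki library held 2.26 FPKM of Lcp1, 1.05 FPKM of Lcp4, 0.366 FPKM of Lcp3 and 0.335 FPKM of Lcp2. Lcp1 with Lcp2, and Lcp3 with Lcp4, are close copies, so the split within each pair is uncertain. Lcp9, on the same chromosome arm but outside the cluster, measured 1.76 FPKM in the RNAi library and was listed at 0 in the control, where that level would have given about 1.9 fragments.

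The Lcp65A cluster, also named for larval cuticle, was mixed. It holds 11 members over 22.4 kb of chromosome 3L, from 6130386 to 6152745. Lcp65Ad was its highest gene, at 31.3 FPKM in the RNAi library and 13.8 FPKM in the control, a log2 ratio of 1.13. Lcp65Ag2 measured 9.55 FPKM in the RNAi library and 7.28 FPKM in the control, a log2 ratio of 0.35. Its close copy Lcp65Ag1 measured 5.80 FPKM in the RNAi library and was listed at 0 in the control. Reads may be split between such copies, and the sum of both was 15.4 FPKM in the RNAi library and 7.28 FPKM in the control. Lcp65Af measured 2.26 FPKM and Lcp65Ac 1.77 FPKM in the RNAi library, and both were listed at 0 in the control. At equal levels about 4.1 and 3.1 control fragments would have been seen, so the depth of the control says little about these 2 genes.

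At the high-coordinate end of the same cluster the direction was the opposite. Lcp65Aa was listed at 0 in the RNAi library and measured 2.62 FPKM in the control, on about 5 control fragments. Acp65Aa, named for adult cuticle, measured 0.157 FPKM in the RNAi library and 1.22 FPKM in the control, about 2 and 3 fragments. It was under the filter, and its 95% counting interval on the log2 scale, -6.54 to 0.16, includes 0. Lcp65Ab1, Lcp65Ab2 and Lcp65Ae were listed at 0 in all 3 libraries, and the first 2 are near-identical copies whose reads may not have been assigned. The other 4 genes of the cluster in these tables, all of the Cpr family, had at most 0.517 FPKM in the RNAi library and were listed at 0 in the control.

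Pcp, the pupal cuticle gene nested in an intron of Gart (chromosome 2L, 7021682 to 7022470), measured 37.1 FPKM in the RNAi library and 13.2 FPKM in the control, a log2 ratio of 1.42. Acp1, the adult cuticle gene, measured 0.0958 FPKM in the RNAi library on about 2 fragments and was listed at 0 in the control. Both adult-named genes, Acp1 and Acp65Aa, were therefore at about 3 fragments or fewer in every library.

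The Tweedle genes formed the largest family and were mostly under 1 FPKM. Of 25 genes, 5 were kept, and 6 were listed at 0 in all 3 libraries. TwdlE (chromosome 2L, 7857957 to 7860839) was nearly level, at 38.5 FPKM in the RNAi library and 30.0 FPKM in the control, a log2 ratio of 0.35. TwdlBeta measured 24.9 FPKM in the RNAi library and 11.8 FPKM in the control, a log2 ratio of 1.02, just past 2-fold. TwdlT measured 3.79 FPKM in the RNAi library and 3.37 FPKM in the control, and TwdlV measured 2.56 FPKM in the RNAi library and 1.21 FPKM in the control. Their log2 ratios were 0.13 and 0.69, under 2-fold with the pseudocount of 1 FPKM. Without a pseudocount the log2 ratio of TwdlV was 1.09, with a counting interval that included 0. The dense group of 12 Tweedle genes on chromosome 3R, 21.9 kb from 26619118 to 26641054, did not pass the filter with any member. Its highest value was 1.05 FPKM for TwdlP in the RNAi library. TwdlM, in that group, measured 0.0385 FPKM in the RNAi library and 0.799 FPKM in the control, on about 1 and 4 fragments.

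Beside Lcp65Aa, which rested on about 5 control fragments, the clear exception among the kept members was Twdlalpha. This X-linked gene (chromosome X, 16742847 to 16744365) measured 6.07 FPKM in the RNAi library and 32.9 FPKM in the control, a log2 ratio of -2.26. Similar numbers of fragments, about 220 and 230, lay behind the values of libraries that differ in depth. Its 95% counting interval, without a pseudocount, ran from -2.71 to -2.17. The other Tweedle genes of its 13.3 kb cluster, TwdlX, TwdlY and TwdlZ, measured 0.301, 0.193 and 0.151 FPKM in the RNAi library and were listed at 0 in the control. The next gene, CG32568, is no Tweedle gene and was lower too, at 7.32 FPKM in the RNAi library and 22.4 FPKM in the control. Its annotation, 16740906 to 16742918, overlaps the start of Twdlalpha on the same strand, so the 2 genes may share some reads. Both were scarce in the Yki library, at 0.203 FPKM for Twdlalpha and 0.0841 FPKM for CG32568. Testis markers were lower in the same library pair, with a log2 ratio below 0 in 12 of 12 genes. They were at least 2-fold lower in 10, beside 17.0% of all kept genes. Their summed level was 917 FPKM in the RNAi library and 3429 FPKM in the control. Their most abundant genes, Mst87F, at 290 FPKM in the RNAi library and 1041 FPKM in the control, and ocn, at 214 FPKM in the RNAi library and 802 FPKM in the control, had log2 ratios of -1.84 and -1.90. The part of testis RNA in the Twdlalpha value was not tested.

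Counting error alone could be given for the 16 kept members with fragments in both Act libraries. The 95% exact (Clopper-Pearson) counting interval of the log2 FPKM ratio lay above 0 for 12 of them, below 0 for 1 and included 0 for 3, which were TwdlT, TwdlV and Lcp65Ag2. Among 10957 kept genes with such an interval, 29.3% lay above 0 and 35.6% below. The intervals were 1.67 to 2.39 for Edg91, 1.70 to 2.91 for Edg78E, 1.64 to 2.69 for Lcp1 and 2.34 to 4.55 for Lcp4. Ccp84Ag had 3.60 to 7.44, and Ccp84Ab, on about 1 control fragment, had 3.19 to 10.99. TwdlE had a narrow interval of 0.15 to 0.57. The intervals compare the libraries as counted and hold no variation between animals or preparations. For genes with several annotated transcripts the shortest was used, which gives the fewest fragments.

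**Figure D3:**
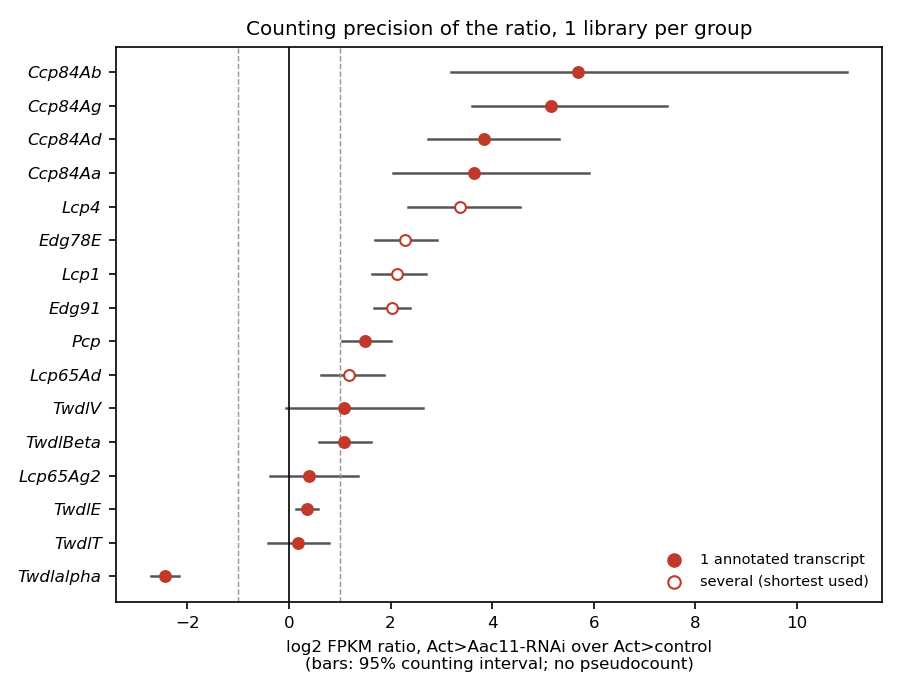
Log2 FPKM ratio of the RNAi library over the control, without a pseudocount, for the 16 kept members with fragments in both, with 95% counting intervals as bars, filled points for genes with 1 annotated transcript and dashed lines at 2-fold. The 4 Ccp84A genes lie highest, TwdlE, TwdlT and Lcp65Ag2 lie between 0 and 1, and Twdlalpha alone lies below 0.

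The summed level of the 53 genes was 589 FPKM in the RNAi library and 193 FPKM in the control. Edg91 held 23.8% of the sum in the RNAi library, followed by Lcp1 with 12.4% and Edg78E with 10.3%. In the control Edg91 held 17.8%, Twdlalpha 17.1% and TwdlE 15.6%. The order of the leading genes thus differed between the Act libraries, with Twdlalpha among the highest in the control alone. Without the Tweedle genes, the other families summed to 509 FPKM in the RNAi library and 110 FPKM in the control, while the Tweedle sum was 79.5 FPKM in the RNAi library and 82.6 FPKM in the control.

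The Yki library held little RNA of the 53 members. Of these, 30 (56.6%) had a listed level of 0 there, and 7 had at least 1 FPKM. The share at 0 was 24.7% for all genes and 43.5% for the 69 Cpr genes, another cuticle protein family. The Cpr genes summed to 474 FPKM in that library. The summed level of the 53 members was 43.6 FPKM, of which TwdlE made up 46.9%. TwdlE, at 20.4 FPKM, stood at percentile 66.8 of all genes in that library. Next came Edg91, Lcp65Ag2 at 4.63 FPKM, Lcp9 at 3.89 FPKM, Lcp1 and TwdlBeta at 2.01 FPKM. Lcp9 was the 1 member with a higher FPKM in the Yki library than in either Act library and at least 3 fragments, with about 12. Since the tables were normalized separately, and the genotype and tissue content also differ, no ratio was formed with this library.

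Genes that build and harden cuticle were listed by their textbook roles. Of the 21 genes for chitin and cuticle assembly, 19 were kept, 7 were at least 2-fold higher, 0 lower, and the median log2 ratio was 0.86. Gasp, a chitin-binding protein gene, measured 179 FPKM in the RNAi library and 32.4 FPKM in the control. The chitin deacetylase gene serp measured 41.3 FPKM in the RNAi library and 8.51 FPKM in the control, and the chitinase gene Cht7 measured 50.1 FPKM in the RNAi library and 12.0 FPKM in the control. The chitin synthase gene kkv itself was higher by a log2 ratio of 1.06, as was knk, which protects new chitin, by 1.14. At the other end, Cht5, a moulting chitinase gene, measured 1389 FPKM in the RNAi library and 1925 FPKM in the control, and the zona pellucida gene cyr measured 1.21 FPKM in the RNAi library and 2.40 FPKM in the control.

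The Cpr family had members past 2-fold in both directions, and the tanning enzymes on the higher side. Of 69 Cpr genes, which share the chitin-binding consensus, 33 were kept, 9 were higher and 1 lower, with a median log2 ratio of 0.44. Cpr100A, at 1224 FPKM in the RNAi library and 35.4 FPKM in the control, and Cpr64Ad, at 49.6 FPKM in the RNAi library and 2.43 FPKM in the control, were among its highest ratios. The lowest was Cpr92F, at 0.481 FPKM in the RNAi library and 2.39 FPKM in the control. Beside 3.70% of all kept genes, 2 of the 10 kept tanning genes (12 listed) were higher. These were ple, the tyrosine hydroxylase gene, at 12.8 FPKM in the RNAi library and 1.05 FPKM in the control, and CG42345, the listed symbol of the laccase gene stw, at 44.9 FPKM in the RNAi library and 21.4 FPKM in the control. Ddc, the dopa decarboxylase gene, measured 4.97 FPKM in the RNAi library and 3.84 FPKM in the control.

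Regulators of the ecdysone cascade had mostly small positive ratios. Of 17 genes, 15 were kept, 2 were higher, 0 lower, and the median log2 ratio was 0.56. Among all kept genes, 3.70% were higher and 17.0% lower. The count of higher regulators depended on the settings, with 6 when upper quartiles were set equal, 4 under both other scalings or a pseudocount of 0.1 FPKM, and 1 with a pseudocount of 5 FPKM or with transcript length bins subtracted. The pair past 2-fold was br, the pupal specifier, at 23.4 FPKM in the RNAi library and 6.64 FPKM in the control, and Eip93F, at 77.4 FPKM in the RNAi library and 36.5 FPKM in the control. The activator of Edg84A, ftz-f1, measured 9.78 FPKM in the RNAi library and 5.24 FPKM in the control, a log2 ratio of 0.79. Eip74EF measured 42.3 FPKM in the RNAi library and 28.0 FPKM in the control, and Blimp-1, which delays ftz-f1, measured 9.41 FPKM in the RNAi library and 6.29 FPKM in the control. Hr46, the DHR3 receptor gene that acts before ftz-f1, was the 1 kept regulator with a negative ratio, at 1.31 FPKM in the RNAi library and 2.23 FPKM in the control. The part of these regulators in the cuticle values was not tested.

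**Figure D4:**
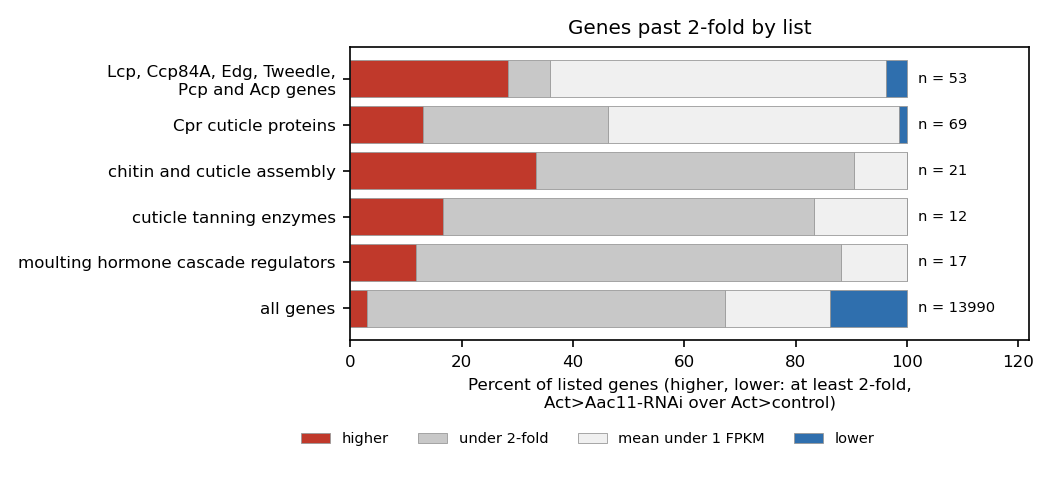
Percent of the genes in each list, including those under the filter, that were higher or lower by 2-fold or more in the RNAi library, under 2-fold, or under a mean of 1 FPKM, with n the genes listed. Higher genes make up 28.3% of the 53 members, 33.3% of the chitin and assembly genes and 13.0% of the Cpr genes, against 2.99% of all genes, while lower genes make up 3.77% of the members and 13.7% of all genes.

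Markers of epithelia that make cuticle had small log2 ratios, above 0 in 5 tracheal and epidermal genes and below 0 in 2. Their counting intervals lay above 0 for 4 and included 0 for 3. Of these 7 kept genes, 0 passed 2-fold either way, or 1 was higher with upper quartiles set equal. Their median log2 ratio was 0.36 and the summed level was 144 FPKM in the RNAi library and 101 FPKM in the control. Of 9 wing disc genes, 0 passed 2-fold, with sums of 332 FPKM in the RNAi library and 274 FPKM in the control. Of 7 fat body genes, 1 was lower and 0 higher, or 0 lower and 1 higher with upper quartiles set equal. The 1 lower gene is 14.3% of that list, near the 17.0% of all kept genes. The fat body sum of 9425 FPKM in the RNAi library and 13448 FPKM in the control was mostly Lsp2, while Lsp1gamma, at 308 FPKM in the RNAi library and 156 FPKM in the control, and Rfabg, at 1026 FPKM in the RNAi library and 661 FPKM in the control, had ratios above 0. No member of these 3 lists was listed at 0 in any library, whereas 5 of the 12 testis genes had a level of 0 in the Yki library. The part of tissue proportions in the cuticle values was not tested.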

How the data were processed

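The authors deposited FPKM values for 13990 genes in 2 separately normalized tables, for the Act libraries and for the Yki library. CASAVA 1.4, TopHat2 2.0.12 and Cuffdiff 2.2.1 appear, with no roles, in the submitters' processing notes, as does the build dm6. Annotation, strand setting and scaling are stated in no source used here, so reads from close copies, overlapping genes or antisense partners may be mixed.

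With 1 library per group there was no test. Ratios were log2((RNAi + 1)/(control + 1)), on genes averaging 1 FPKM or more, called at 2-fold. The pseudocount understates changes of low genes, and a 0 can be a failed estimate. Symbols were matched to Ensembl release 115 (dm6 coordinates) and RefSeq names, for all 53 members and 98.2% of genes. Depth was found from the FPKM steps of genes with 1 transcript of 400 to 3000 nt, taking 220 nt off each transcript length. Low values lay within 0.2 of a whole fragment in 78.9% (RNAi), 80.2% (control) and 85.9% (Yki). Random values would give 40%, but depth and offset were fitted to these same values. Transcripts of 350 to 400 nt, outside the fit, gave 90.0% of 20 values (RNAi), 57.1% of 14 (control) and 71.4% of 14 (Yki). Fragment numbers are thus approximate, were read for transcripts over 350 nt, and give 95% intervals that cover counting error only. The steps were checked on data simulated with the same length formula, which cannot test whether the deposited values follow that formula. Every member could be named, and from the other lists up to 3 kept genes with the highest and 3 with the lowest ratios, plus ftz-f1, br, Eip74EF, Hr46 and Blimp-1. Further genes, the neighbours of the members among them, were named after their values were seen. The members and lists were chosen with earlier results of these data known. Python 3.11.15, pandas 2.3.3 and scipy 1.17.1 were used. Alternatives changed the pseudocount, filter, scaling and transcript length correction.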

Additional observations from a re-analysis of the deposited data

Results flagged for a closer look

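Lcp9, a short larval cuticle gene on chromosome 2R, measured 3.89 FPKM in the Yki library, on about 12 fragments, and was listed at 0 in the Act>control library. It stood out as a signal in a library that enters no comparison, above its level in the control. The RNAi library held 1.76 FPKM, and that level would have given about 1.9 fragments in the control, so its 0 there is within the limit of that depth.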

How the results depend on the processing

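All 21 kept members kept the sign of their log2 ratio under each of the 8 settings listed in advance that retained them. A change of pseudocount or filter cannot reverse a sign. Each scaling raised the RNAi library relative to the control, so it could not turn a positive ratio negative. The kept signs are therefore weak evidence of stability. With a pseudocount of 5 FPKM, 11 members were higher and 1 lower, beside 245 higher and 1486 lower among all 11330 kept genes. The median log2 ratio of the kept members was 1.11 at that setting. Lcp3, Lcp65Af, Lcp65Ad, TwdlBeta and Lcp65Aa were then under 2-fold. With a pseudocount of 0.1 FPKM the median was 2.11, and 16 members were higher, TwdlV among them, and 2 lower. At that setting 552 genes were higher and 2068 lower among all kept genes. The median was 1.76 with sums of FPKM set equal and 1.83 with upper quartiles set equal. With the median of 10 transcript length bins subtracted it was 2.29. With no filter the median over all 53 members was 0.35, and 18 were higher and 2 lower. Among all 13990 genes, 463 were higher and 1943 lower without a filter. With a filter at 5 FPKM 12 members were higher and 1 lower, beside 292 higher and 1684 lower among all genes that passed it. With the filter on the control alone, added after seeing the data, 8 members were higher and the median was 1.02, since genes low in the control drop out by construction. Setting upper quartiles equal moved the median of all kept genes to 0.26 and gave 819 higher and 1704 lower genes. The control's depth of 6150000 fragments limits every member under about 1 FPKM there. No paired analysis was possible because each group has 1 library.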
